A study of Mus musculus with 6 samples.

Results

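The genes of the eukaryotic translation initiation factors (eIFs) and of the kinases that act on eIF2 were examined in cells sorted from mouse bone marrow. They were taken as the entries whose symbol starts with Eif and a digit, leaving out 7 entries marked as pseudogenes by "-ps", and came to 53 of the 25955 entries of the expression table. Both groups came from enzymatically digested marrow of C57BL/6 mice and were called TNCs by the submitters, who did not spell the term out. CD44+CD51- cells carried the hyaluronan receptor CD44 and lacked CD51, which is integrin alpha V. CD51+ cells carried CD51. Each group had 3 libraries, numbered 1 to 3, made from cells sorted straight into lysis buffer. The labels do not say that the 3 came from separate animals, so a p-value measures only the spread between these libraries.

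Translation of most mRNAs starts when eIF2, a GTP-binding complex of an alpha, a beta and a gamma subunit, carries the initiator tRNA to the small ribosomal subunit. The large eIF3 complex holds that subunit ready, eIF4E binds the mRNA cap, eIF4G bridges the cap to eIF3, and the helicase eIF4A unwinds the leader. eIF1 and eIF1A help to select the start codon, after which eIF5 triggers GTP hydrolysis and eIF5B joins the large subunit. eIF2B recharges eIF2 with GTP. The Eif2ak kinases phosphorylate the alpha subunit, which turns eIF2 into an inhibitor of eIF2B and starts the integrated stress response. In red cell precursors the haem-regulated member of that kinase family, Eif2ak1, is known for matching globin synthesis to haem supply.

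Expression is given in the authors' RPKM, a unit that divides read numbers by gene length and by library size, so levels of different genes can be compared per length. The library size behind each RPKM, recovered from the steps between low values, was 19332050 to 25579324 reads in CD44+CD51- and 12192053 to 32514117 in CD51+. Itgav, the gene of CD51, stood at 0.564, 0.957 and 0.510 RPKM in CD44+CD51- and at 5.37, 9.81 and 5.86 in CD51+, which follows the labels. Cd44 had 31.98, 37.03 and 35.4 against 29.3, 30.2 and 34.9 RPKM, with overlap, and was not called (adjusted p = 0.401). All 6 stromal markers examined, such as Col1a1 and Cxcl12, were higher in CD51+ (Lepr and Pdgfrb passed the filter on low values through CD51+ alone), with a summed RPKM of 19.6 to 148 in CD44+CD51- and 26908 to 36050.4 in CD51+. Markers of other cells moved with the groups as well. All 6 neutrophil-lineage markers were higher in CD51+ (summed RPKM 4627 to 23636 against 72378 to 73900.5), and so were all 3 pan-haematopoietic ones (131 to 285 against 415 to 667). Of 8 erythroid markers 5 were lower and 2 higher in CD51+ (6143 to 7548 against 4345 to 6654), and of 6 genes of dividing cells 4 were lower (659 to 739 against 328 to 441). Early B markers were lower in 4 of 5 tested (202 to 621 against 36.5 to 82.6), and the 1 endothelial marker tested of 4 was not called (1.27 to 5.69 against 3.11 to 4.80). No marker was at 0 in every library, and Cdh5 was at 0 in CD44+CD51- libraries 1 and 3. The part of these cells in the results was not tested, and in bulk libraries fewer cells of a type and less RNA per cell cannot be told apart. Within CD44+CD51-, library 2 had the highest stromal and neutrophil sums; without it 32 Eif genes were lower in CD51+ and 1 higher. The libraries numbered 1 stood apart from the other 4 on the second principal component, which held 9.97% of the variance, and without both 39 Eif genes were lower and 1 higher.

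All 53 genes were detected in all 6 libraries, from Eif3j2 at a mean of 0.319 RPKM to Eif5a at 1351 over the 6. Tested together with all genes of at least 1 RPKM in at least 3 libraries (limma on log2(RPKM + 1), two-sided, Benjamini-Hochberg over 11741 genes, threshold 0.05), 37 of the 52 that entered the test were lower in CD51+ and 1, Eif4e3, was higher, with 14 not called. Among all genes tested 29.7% were lower and 24.1% higher. Most of these genes are well expressed, and among genes with a mean of at least 10 RPKM 40.4% were lower and 17.0% higher, against 33 lower and 0 higher of the 42 Eif genes at that level. The remaining entry, Eif3j2, was too low to be tested. The median log2 change, CD51+ minus CD44+CD51-, was -0.76 over the 52 genes and -0.23 over all genes, and 45 of the 52 lay below the median gene. At a mean of at least 10 RPKM the median was -0.83 over 42 Eif genes and -0.44 over 5632 genes. With the library number as a block, 44 Eif genes were lower and 2 higher, against 41.3% lower and 27.8% higher among all genes.

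In 39 of the 53 genes all 3 CD51+ values lay below all 3 CD44+CD51- values, in 1 they lay above, and in 13 the groups overlapped. Among all genes tested 37.5% had every CD51+ value below and 26.1% every CD51+ value above. The 53 include Eif3j2, which lay below but was not tested. Comparing libraries of the same number, 47 of the 53 genes were lower in CD51+ in all 3 comparisons and 3 were higher in all 3 (Eif2ak3, Eif4a2 and Eif4e3). By the same comparison 50.9% of all genes tested were lower in all 3 and 32.2% higher in all 3. Of the 52 Eif genes tested 46 were lower in all 3 and 3 higher. The ratio of group means ran from 0.445 for Eif4b to 2.67 for Eif4e3, with a median of 0.583. Together the 53 genes took 1.51%, 1.41% and 1.57% of the summed RPKM in the CD44+CD51- libraries and 0.609%, 0.682% and 0.759% in the CD51+ libraries. The shares did not overlap between the groups. The summed RPKM of all genes was 485457 ± 31317 in CD44+CD51- and 604971 ± 13392 in CD51+ (mean ± SD, n = 3), and the larger sum lowers the CD51+ shares. The sum of the 53 genes itself was 7240 ± 124 RPKM in CD44+CD51- and 4140 ± 538 in CD51+.

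**Figure D1:**
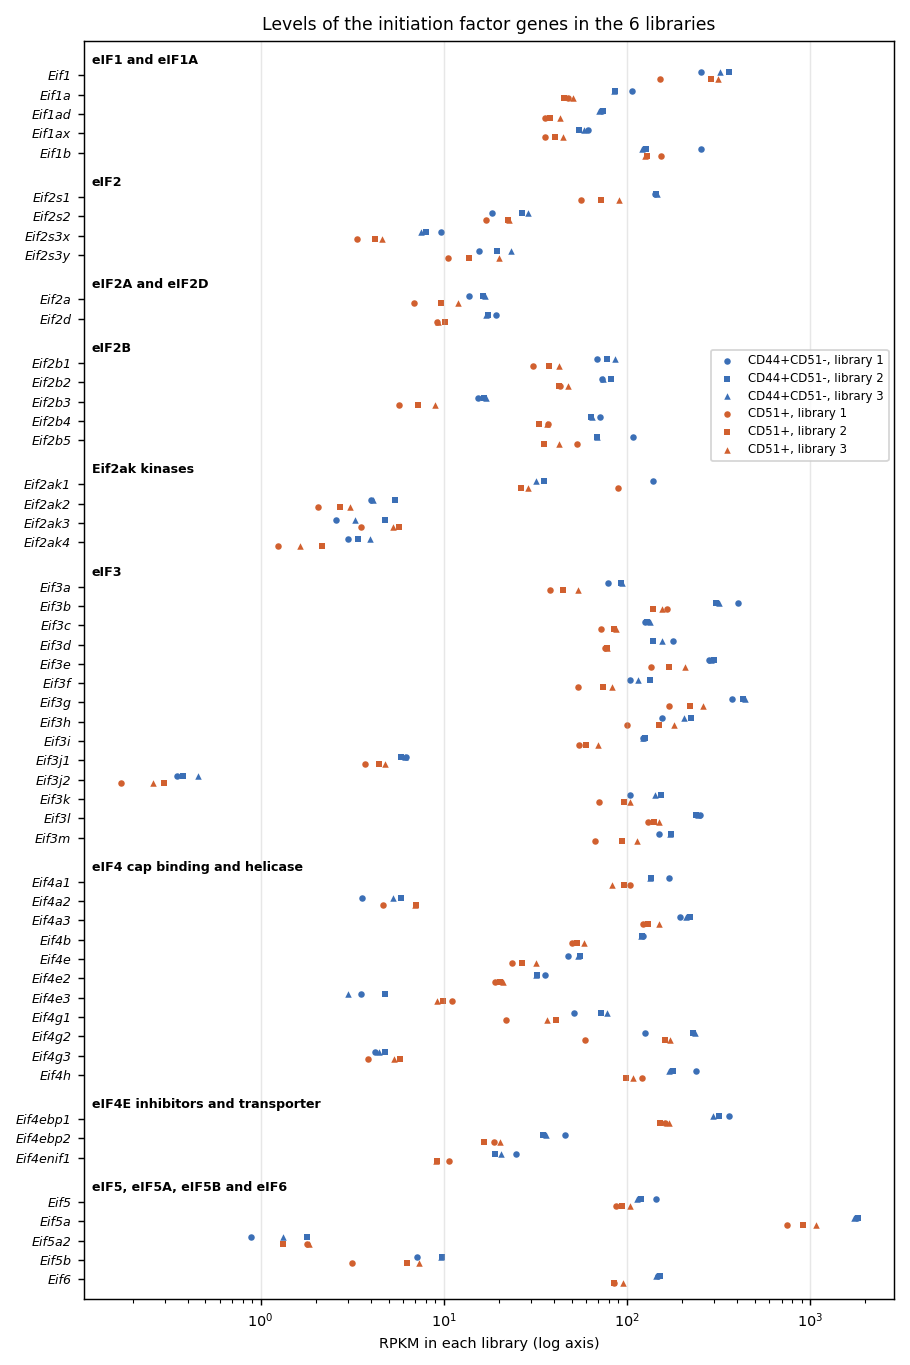
RPKM of each initiation factor gene in each of the 6 libraries on a log axis, grouped by complex, with CD44+CD51- libraries in blue, CD51+ libraries in orange and the library number shown by the marker shape. The orange points sit to the left of the blue ones for 39 of the 53 genes, and Eif4e3 is the 1 gene with all orange points to the right.

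**Figure D2:**
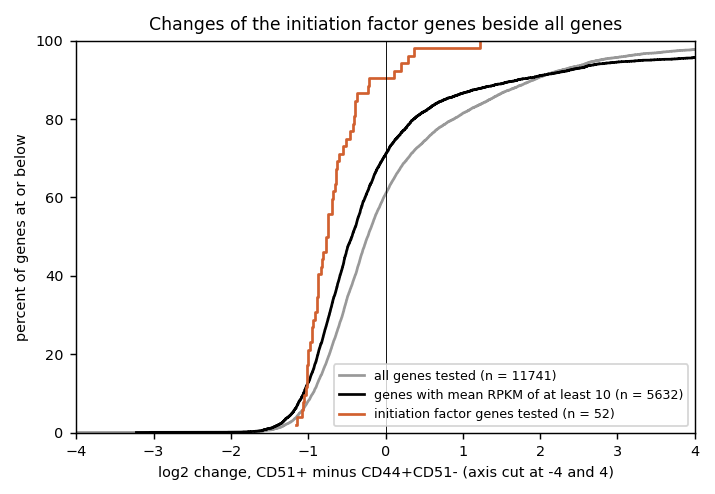
Cumulative percent of genes at or below each log2 change (CD51+ minus CD44+CD51-) for all 11741 genes tested, the 5632 with a mean of at least 10 RPKM, and the 52 initiation factor genes tested. The curve of the initiation factor genes lies to the left over most of its range, with medians of -0.23, -0.44 and -0.76 for the 3 sets, and ends with Eif4e3 at 1.23.

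The size of the shift depended on how libraries were scaled. Rescaling every library to a sum of 1000000 moved the median of all genes by -0.26 and quantile normalization moved it by -0.13, both on the log2 scale. The median of the 52 genes minus that of all genes was -0.52 as deposited, -0.60 after rescaling to 1000000, -0.53 with TMM scaling and -0.31 after quantile normalization. Each of these is against genes of every level, and well expressed genes had a lower median as deposited, as given above. The number of Eif genes lower was 37, 42, 36 and 37 in that order, and the number higher was 1 in each. Over all genes the split of higher to lower calls was 2825 to 3484 as deposited, 2793 to 5672 after rescaling to 1000000, 2992 to 3152 with TMM scaling and 2419 to 4567 after quantile normalization.

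The counts by complex that follow stand beside 29.7% lower among all genes and 40.4% at a mean of at least 10 RPKM. With the block 41.3% of all genes were lower. The genes of eIF1 and eIF1A type were partly lower in CD51+. Of these 5 genes, 3 fell (Eif1a, Eif1ad and Eif1ax) and 2 were not called (Eif1 and Eif1b). Eif1a, an autosomal gene for eIF1A, stood at 107, 86.5 and 85.4 RPKM in CD44+CD51- libraries 1 to 3 and at 47.5, 45.1 and 50.6 in CD51+ libraries 1 to 3, the order kept throughout. The groups did not overlap (log2 change -0.94 ± 0.15, standard error, adjusted p = 0.00201). Its X-linked counterpart Eif1ax had 61.6, 54.6 and 58.1 against 35.96, 40.7 and 44.99 RPKM and a smaller change (-0.51 ± 0.14, adjusted p = 0.0191). That call was lost without CD44+CD51- library 3 (adjusted p = 0.0653) and without CD51+ library 2 (0.0707). Eif1ad, which shares the eIF1A fold, fell from 73.1, 73.9 and 70.7 to 35.8, 38.2 and 43.1 RPKM (-0.88 ± 0.13, adjusted p = 0.00166), and 15.3% of its exon bases also lie in Banf1 on the other strand.

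Eif1 itself, which guards against starting at near-cognate codons, had 253, 362 and 324 RPKM in CD44+CD51- and 152, 287 and 314 in CD51+, with overlapping groups (adjusted p = 0.336). Its paralog Eif1b had 253, 127 and 121 against 153, 128 and 125 RPKM, and library 1 was the highest in both groups (adjusted p = 0.553). The log2 change of Eif1b was -0.22 with all libraries, 0.12 without CD44+CD51- library 1 and 0.03 without both libraries numbered 1. Of its exon bases 12.7% also lie in an antisense gene, D830035M03Rik.

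Within eIF2 the alpha subunit and the X-linked gamma subunit fell, while the beta subunit and the Y-linked gamma subunit were not called. Eif2s1, the alpha subunit that the Eif2ak kinases phosphorylate, had 143, 145 and 146 RPKM in CD44+CD51- and 56.3, 72.1 and 90.4 in CD51+. The CD44+CD51- libraries were within a few RPKM of each other and all 3 CD51+ libraries lay far below (-1.004 ± 0.19, adjusted p = 0.00458). Eif2s2, the beta subunit, had 24.7 ± 5.53 against 20.8 ± 3.22 RPKM (mean ± SD, n = 3) with overlapping groups (adjusted p = 0.388).

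The gamma subunit, which binds GTP and the initiator tRNA, has an X-linked and a Y-linked gene in the mouse. Eif2s3x had 9.71, 7.99 and 7.53 RPKM and 3.38, 4.24 and 4.63 RPKM in the 2 groups, without overlap (-0.89 ± 0.17, adjusted p = 0.00439). Eif2s3y had 15.6, 19.5 and 23.4 against 10.6, 13.7 and 19.98 RPKM, with overlap (-0.40 ± 0.25, adjusted p = 0.214, or 0.0215 with the library number as a block). Per length the Y-linked copy was the higher of the pair in every library. Xist was at most 0.0153 RPKM in all 6 libraries. Eif2a and Eif2d, which can deliver tRNA without eIF2, both fell. Eif2a went from 13.8, 16.5 and 16.7 to 6.91, 9.64 and 11.9 RPKM (-0.69 ± 0.21, adjusted p = 0.0265). Its call was lost without CD44+CD51- library 2 (adjusted p = 0.0749), CD44+CD51- library 3 (0.0865) or CD51+ library 2 (0.0738). Eif2d went from 19.2, 17.4 and 17.1 to 9.15, 10.1 and 9.35 RPKM (-0.84 ± 0.13, adjusted p = 0.00191).

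All 5 subunits of eIF2B were lower in CD51+, and in each of them the groups did not overlap. Their summed level was 318 ± 15.4 RPKM in CD44+CD51- and 168 ± 11.2 in CD51+ (mean ± SD, n = 3), and the ratios of means lay between 0.447 for Eif2b3 and 0.583 for Eif2b2. Eif2b3, the gamma subunit of the catalytic part, had 15.3, 16.6 and 16.9 RPKM in CD44+CD51- and 5.67, 7.24 and 8.92 in CD51+ (-1.08 ± 0.18, adjusted p = 0.00252). Eif2b1, the alpha subunit of the regulatory part, had 68.8, 77.9 and 85.9 against 30.8, 37.7 and 42.6 RPKM (-1.05 ± 0.17, adjusted p = 0.00227). In both genes library 3 was the highest of its group.

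Eif2b5, the epsilon subunit that holds the exchange activity, had 107, 68.98 and 68.8 against 53.4, 35.4 and 42.6 RPKM, with library 1 the highest in both groups (-0.87 ± 0.24, adjusted p = 0.0183). Its call was lost without CD51+ library 2 (adjusted p = 0.0770) or CD51+ library 3 (0.0590). Eif2b2 (beta) and Eif2b4 (delta) had log2 changes of -0.76 and -0.87. Eif2b5 relative to its substrate subunit Eif2s1 stood at 0.751, 0.477 and 0.470 in CD44+CD51- and 0.949, 0.491 and 0.471 in CD51+, so exchange factor and substrate kept overlapping ratios.

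Of the 4 kinase genes, Eif2ak4 and Eif2ak2 fell in CD51+, Eif2ak1 and Eif2ak3 were not called, and Eif2ak3 was the 1 kinase with a higher mean in CD51+. Per length Eif2ak1 was the most abundant of the 4 in every library. Eif2ak4 (GCN2, chr2:118388618-118475234 in GRCm38), which senses uncharged tRNA, had 3.02, 3.41 and 3.95 RPKM in CD44+CD51- and 1.24, 2.15 and 1.64 in CD51+, without overlap (-0.74 ± 0.18, adjusted p = 0.0109). Eif2ak2 (PKR, chr17:78852564-78882573), which senses double-stranded RNA, had 3.998, 5.41 and 4.10 against 2.05, 2.73 and 3.06 RPKM, also without overlap (-0.61 ± 0.18, adjusted p = 0.0254). The Eif2ak2 call was lost without the filter on low values (adjusted p = 0.0532). It was also lost without CD44+CD51- library 2 (0.0789) or 3 (0.0556), or without CD51+ library 1 (0.0633) or 2 (0.0669).

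Eif2ak3 (PERK, chr6:70844515-70905245), the kinase of the endoplasmic reticulum that answers to unfolded secretory proteins, had 2.58, 4.77 and 3.30 RPKM in CD44+CD51- and 3.54, 5.68 and 5.29 in CD51+. The groups overlapped, although each CD51+ library exceeded the CD44+CD51- library of its number, by ratios of 1.37, 1.19 and 1.60. The log2 change was 0.37 ± 0.24 (adjusted p = 0.227, or 0.0467 with the library number as a block). Eif2ak1 (HRI, chr5:143817788-143904251) had 138, 35.3 and 31.9 RPKM in CD44+CD51- and 88.98, 26.5 and 29.04 in CD51+. Library 1 was about 4.12 times the mean of the other libraries in CD44+CD51- and 3.21 times in CD51+, far more than the difference between the groups. Within numbers the ratio of CD51+ to CD44+CD51- was 0.643, 0.749 and 0.911 (log2 change -0.39 ± 0.67, adjusted p = 0.642, or 0.0349 with the block). Without CD44+CD51- library 1 the log2 change of Eif2ak1 was 0.28. With the block the kinases counted 3 lower and 1 higher of 4, where 41.3% of all genes were lower and 27.8% higher.

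**Figure D3:**
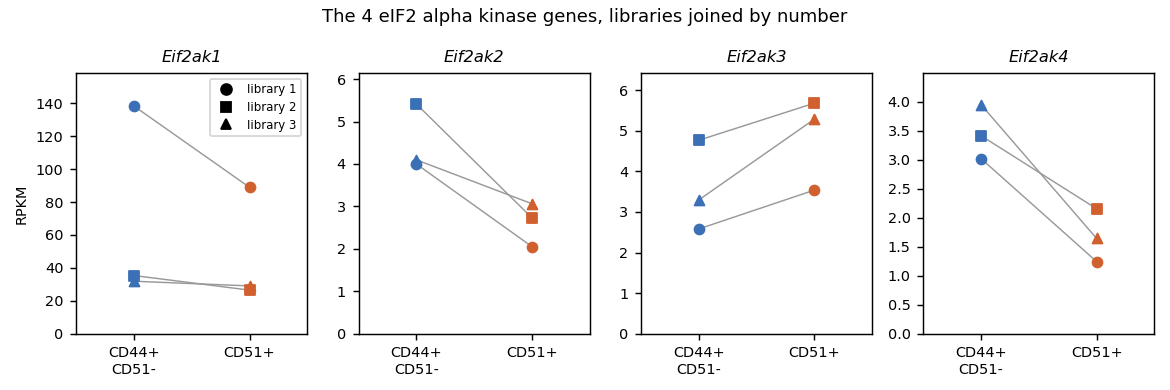
RPKM of the 4 eIF2 alpha kinase genes in each library on linear axes that start at 0, with a line joining the libraries of the same number. The lines of Eif2ak2 and Eif2ak4 all go down from CD44+CD51- to CD51+, those of Eif2ak3 all go up, and library 1 stands far above the others for Eif2ak1 in both groups.

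The kinases were also set against each other within each library. Eif2ak4 relative to Eif2ak3 was 1.17, 0.716 and 1.20 in CD44+CD51- and 0.351, 0.379 and 0.310 in CD51+, a log2 difference of -1.48. Eif2ak2 relative to Eif2ak3 was 1.55, 1.14 and 1.24 against 0.580, 0.481 and 0.579, a log2 difference of -1.22. Neither pair of groups overlapped. Eif2ak1 relative to Eif2ak3 ran from 7.41 to 53.6 in CD44+CD51- and from 4.66 to 25.2 in CD51+, with overlap.

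The eIF3 genes fell almost throughout, with 11 of 13 tested lower in CD51+, 2 not called (Eif3h and Eif3k) and a median log2 change of -0.80. The subunits summed to 2411 ± 64.2 RPKM in CD44+CD51- and 1350.4 ± 206 in CD51+, and their ratios of means lay between 0.450 for Eif3b and 0.738 for Eif3h. Eif3b, a core subunit that carries an RNA recognition motif, had 404, 306 and 318 RPKM in CD44+CD51- and 167, 139.7 and 156 in CD51+. All CD51+ values lay below (-1.14 ± 0.18, adjusted p = 0.00201). Eif3d, a subunit that can itself bind the cap of some mRNAs, had 178, 139.5 and 156 against 75.6, 77.5 and 77.9 RPKM (-1.02 ± 0.15, adjusted p = 0.00149). Of its exon bases 43.3% also lie in an antisense gene, Gm17638, and the library kit keeps no strand. Smaller overlaps of other Eif genes, such as 8.59% of the exon bases of Eif2ak1 in Aimp2, are not all given.

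The other lower eIF3 genes were Eif3a, Eif3c, Eif3e, Eif3f, Eif3g, Eif3i, Eif3j1, Eif3l and Eif3m, with log2 changes from -1.001 (Eif3i) to -0.42 (Eif3j1). Without CD51+ library 2 the calls of Eif3e (adjusted p = 0.0555) and Eif3f (0.0545) were lost. The call of Eif3f was also lost without CD44+CD51- library 2 (0.0615) or 3 (0.0536). Eif3j1 was the least firm, with adjusted p = 0.0452 and a range over leaving out each of the 6 libraries of 0.0577 (CD51+ library 3) to 0.126 (CD44+CD51- library 3). The call was also lost without the filter on low values (0.0669), with TMM scaling (0.0716) and without both libraries numbered 1 (0.0751). Eif3j1 shares 36.6% of its 50-base windows with the low copy Eif3j2, and Eif3j2 shares 90.8% of its own, so reads could be split between them. Of the exon bases of Eif3j1 19.0% also lie in Spg11 on the other strand. Eif3j2 had 0.349, 0.378 and 0.456 RPKM in CD44+CD51- and 0.172, 0.297 and 0.260 in CD51+. Eif3h (adjusted p = 0.175) and Eif3k (0.0710) overlapped between groups and had values of 0.0246 and 0.00564 with the block, in the lower direction, so that all 13 then counted as lower.

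**Figure D4:**
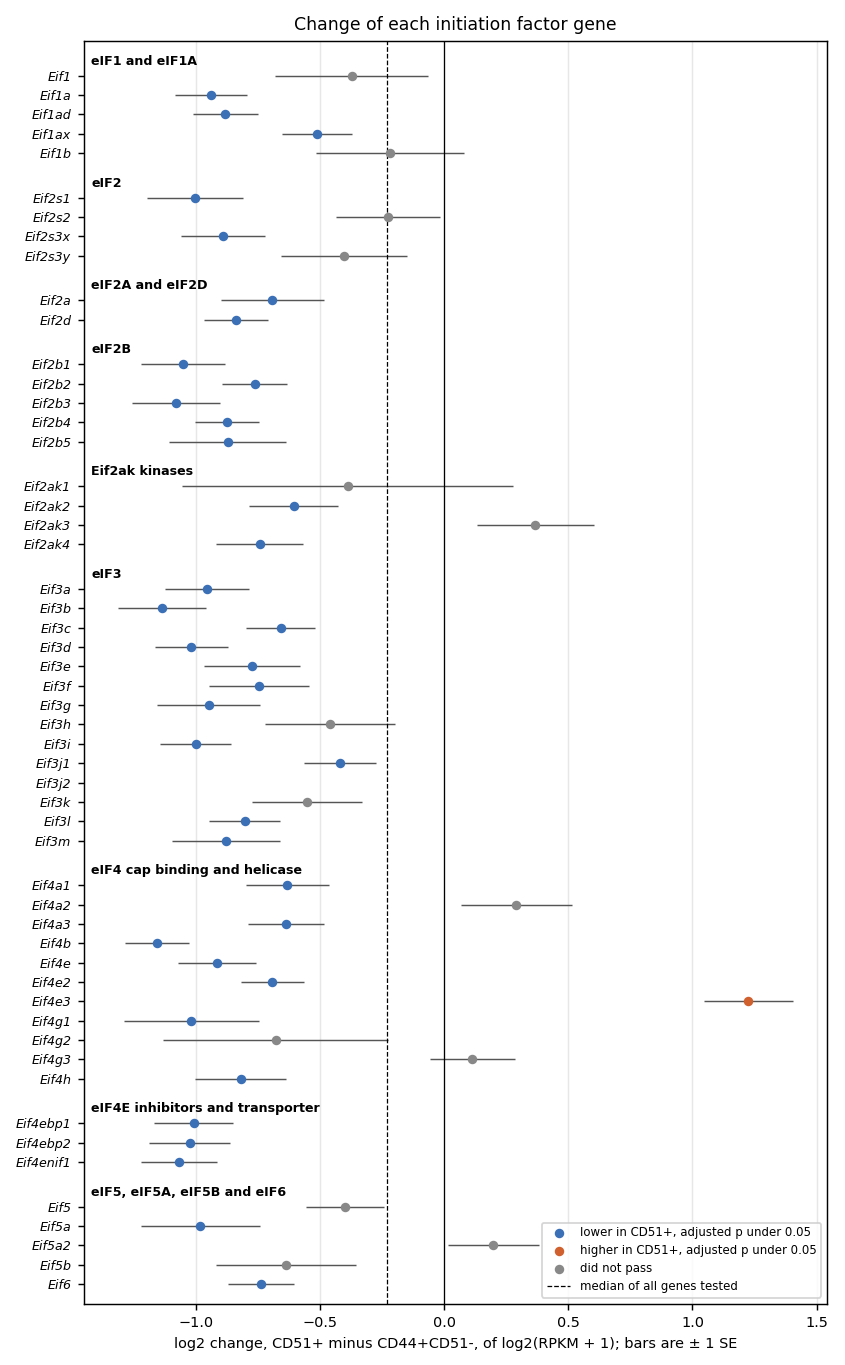
Log2 change of each initiation factor gene (CD51+ minus CD44+CD51-, of log2(RPKM + 1)) with bars of 1 standard error, coloured by call, beside the median of all genes tested at -0.23 as a dashed line. Called genes are blue to the left for 37 genes and orange for Eif4e3, all 5 eIF2B genes are blue, and Eif3j2 has no point because it was not tested.

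Of the 11 genes of cap binding and unwinding, 7 fell, Eif4e3 rose and 3 were not called (Eif4a2, Eif4g2 and Eif4g3). The steepest fall of all 52 genes was that of Eif4b, a cofactor of the eIF4A helicase, with 123, 120.5 and 120.2 RPKM in CD44+CD51- and 50.1, 53.5 and 58.3 in CD51+. Values were tight within each group and far apart between them (-1.16 ± 0.13, adjusted p = 0.000498). Eif4h, a smaller cofactor of the same helicase, had 239, 179.6 and 169 against 121, 99.5 and 108 RPKM (-0.82 ± 0.18, adjusted p = 0.00886).

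Eif4e, the cap-binding subunit of the eIF4F complex, had 47.5, 55.7 and 54.2 RPKM in CD44+CD51- and 23.6, 26.9 and 31.9 in CD51+, without overlap (-0.92 ± 0.16, adjusted p = 0.00294). Eif4e2 (4EHP), which binds the cap without recruiting eIF4G and is known as a repressor, had 35.8, 32.1 and 31.8 against 19.1, 20.2 and 21.2 RPKM (-0.69 ± 0.13, adjusted p = 0.00374). Eif4e3 (chr6:99625135-99666771, minus strand), a divergent cap-binding paralog, went the other way. It had 3.52, 4.77 and 3.002 RPKM in CD44+CD51- and 11.1, 9.87 and 9.19 in CD51+, every CD51+ library lying above every CD44+CD51- library (1.23 ± 0.18, adjusted p = 0.00163). Its call held in each of the 16 alternatives, with adjusted p from 0.000361 to 0.0164. Even so it stayed below Eif4e in level in all 6 libraries. Of its exon bases 14.8% also lie in Gm20696 on the same strand.

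Eif4g1, the main scaffold between cap and eIF3, had 51.7, 71.9 and 77.7 RPKM in CD44+CD51- and 21.8, 41.2 and 36.7 in CD51+ (-1.02 ± 0.27, adjusted p = 0.0174). The groups did not overlap, but the call was lost without CD44+CD51- library 2 (adjusted p = 0.0512) or 3 (0.0621). Eif4g2 (DAP5), a scaffold that lacks the eIF4E-binding part, had 125, 231 and 234 against 59.00, 161 and 171 RPKM, library 1 being the lowest of each group (adjusted p = 0.242, or 0.00733 with the block and 0.0135 without both libraries numbered 1). Eif4g3, the third scaffold, had 4.20, 4.81 and 4.45 against 3.88, 5.75 and 5.33 RPKM. Its log2 change was 0.11 as deposited and -0.16 both after rescaling to a sum of 1000000 and after quantile normalization (adjusted p = 0.596 as deposited).

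Among the helicases Eif4a1, the form that dominates in dividing cells, had 171, 136 and 133 RPKM in CD44+CD51- and 103, 96.6 and 82.6 in CD51+, without overlap (-0.63 ± 0.17, adjusted p = 0.0172). The call was lost without CD51+ library 2 (adjusted p = 0.0612) or 3 (0.0591) and after quantile normalization (0.0693). Eif4a2, its close paralog, had 3.60, 5.86 and 5.26 against 4.64, 7.02 and 6.99 RPKM, with overlap (adjusted p = 0.304). Eif4a3, the helicase of the exon junction complex, had 194, 223 and 211 against 123, 131 and 149.8 RPKM (-0.64 ± 0.15, adjusted p = 0.0116, or 0.0575 without CD51+ library 2).

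The inhibitors of eIF4E fell with it. Eif4ebp1 (4E-BP1), which competes with eIF4G for eIF4E until it is phosphorylated by the kinase mTOR, had 363, 319.6 and 296 RPKM in CD44+CD51- and 162, 151 and 170.1 in CD51+. No CD51+ value reached the CD44+CD51- range (-1.01 ± 0.16, adjusted p = 0.00206). Eif4ebp2 had 46.2, 34.7 and 36.02 against 18.8, 16.5 and 20.3 RPKM (-1.03 ± 0.16, adjusted p = 0.00211). Eif4enif1 (4E-T), which shuttles eIF4E and acts in mRNA storage and decay, had 24.8, 19.1 and 20.5 against 10.7, 9.23 and 9.11 RPKM (-1.07 ± 0.15, adjusted p = 0.00145).

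Relative to Eif4e in the same library, Eif4ebp1 stood at 7.66, 5.74 and 5.47 in CD44+CD51- and at 6.89, 5.62 and 5.34 in CD51+. The groups overlapped and differed by -0.08 on the log2 scale (exact permutation test, two-sided, p = 0.600). Eif4ebp2 relative to Eif4e was 0.973, 0.624 and 0.665 against 0.799, 0.614 and 0.635, with overlap. The 4E-BP genes also kept overlapping ratios to each other (Eif4ebp2 to Eif4ebp1 0.109 to 0.127 in CD44+CD51- and 0.109 to 0.119 in CD51+).

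Of the 5 genes of eIF5, eIF5A, eIF5B and eIF6, 2 fell (Eif5a and Eif6) and 3 were not called. That share was close to the 40.4% lower among all genes with a mean of at least 10 RPKM. With the block 4 fell, where 41.3% of all genes did. Eif5a, whose hypusine-bearing protein helps the ribosome through difficult peptide bonds, was the most abundant of all 53 genes, with 1808, 1819 and 1739 RPKM in CD44+CD51- and 751, 918 and 1072 in CD51+. All CD51+ values lay well below (-0.98 ± 0.24, adjusted p = 0.0123, or 0.0520 without CD51+ library 2). Eif6, which keeps the large subunit from joining too early, had 148, 151 and 144 against 84.9, 84.6 and 95.7 RPKM (-0.74 ± 0.13, adjusted p = 0.00366). Eif5a2, the low paralog of Eif5a, had 0.885, 1.79 and 1.33 against 1.79, 1.32 and 1.84 RPKM. Its log2 change was 0.20 as deposited (adjusted p = 0.390) and -0.44 after quantile normalization. Eif5, the GTPase activator of eIF2, had 126 ± 16.5 against 95.2 ± 8.57 RPKM (mean ± SD, n = 3; adjusted p = 0.0676, or 0.0461 with the block, lower). Eif5b, the GTPase of subunit joining, had 8.88 ± 1.51 against 5.57 ± 2.16 RPKM (adjusted p = 0.0960, or 0.00787 with the block, lower). Of its exon bases 16.8% also lie in Rev1 on the other strand.

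The proportions of paralogs and partners were also compared within libraries. A ratio within a library is not changed by a scaling factor of that library, and 18 pairs were compared. In 5 pairs the ratio was higher in every CD51+ library, in 3 lower in every one, and in 10 the groups overlapped. With 3 libraries against 3 the smallest exact two-sided permutation p is 0.1, which all 8 pairs without overlap reached, and adjusted over the 18 pairs it was 0.225. None passed a threshold of 0.05, which this design cannot do.

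Eif4e3 relative to Eif4e was 0.0742, 0.0857 and 0.0554 in CD44+CD51- and 0.469, 0.367 and 0.288 in CD51+, a log2 difference of 2.35 or 5.10-fold. Eif4g3 relative to Eif4g1 was 0.0812, 0.0669 and 0.0573 against 0.178, 0.140 and 0.145, a log2 difference of 1.17. Eif4a2 relative to Eif4a1 was 0.0211, 0.0430 and 0.0394 against 0.0448, 0.0726 and 0.0845, a log2 difference of 0.98. In each of these pairs the scarcer copy made up more of the pair in CD51+. The same held for Eif5a2 relative to Eif5a (log2 difference 1.31), where the ratio was 0.000490, 0.000983 and 0.000763 against 0.00239, 0.00144 and 0.00172. Eif2s3y relative to Eif2s3x was 1.61, 2.44 and 3.10 against 3.14, 3.23 and 4.32, where the more abundant copy gained.

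In the other direction, Eif1a relative to Eif1ax was 1.73, 1.58 and 1.47 in CD44+CD51- and 1.32, 1.11 and 1.13 in CD51+, a log2 difference of -0.43. The remaining 2 pairs that were lower were the kinases Eif2ak2 and Eif2ak4 relative to Eif2ak3, given above. The pairs with overlap included Eif1b to Eif1 (log2 difference 0.15), Eif4a3 to Eif4a1 (-0.002), Eif4e2 to Eif4e (0.22), Eif4g2 to Eif4g1 (0.36) and Eif4h to Eif4b (0.34). No 50-base window was shared by the paralogs Eif1 and Eif1b, Eif1a and Eif1ax, Eif2s3x and Eif2s3y, Eif4a1 and Eif4a2, Eif4e and Eif4e3, or Eif5a and Eif5a2.

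**Figure D5:**
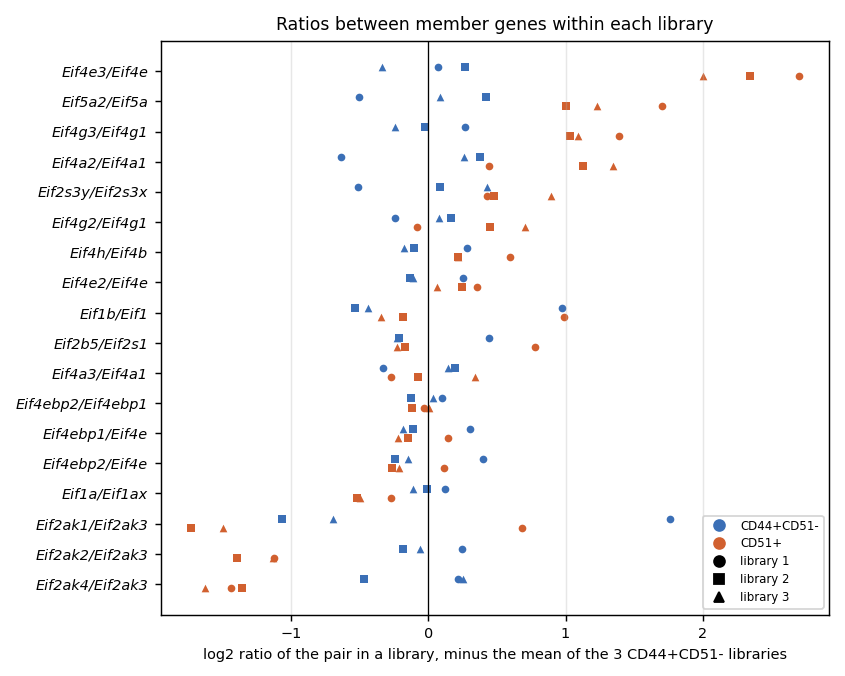
Log2 ratio of each of 18 gene pairs in each library, shifted so that the mean of the 3 CD44+CD51- libraries is 0, with groups by colour and library number by marker. CD51+ points lie to the right of all CD44+CD51- points for the 5 pairs at the top, led by Eif4e3 to Eif4e at a mean of 2.35, and to the left for Eif1a to Eif1ax and for Eif2ak2 and Eif2ak4 to Eif2ak3.

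The stretches upstream of these genes were read from RefSeq (build GRCm38.p6), as the 250 bases before the annotated start, for the 43 of 53 genes that had an entry. The 43 windows were rich in CpG, with a median of 19 CpG in 250 bases against 6 over 27025 windows of all genes, and 59.2% against 52% G and C. Short motifs were searched on both strands. The ETS motif CCGGAAG was found in 10 of the 43 windows (23.3%) and in 7.05% of all windows. The E-box CACGTG was found in 7 (16.3%) and in 6.05% of all windows. CCAAT was found in 12 (27.9%) against 34.5%, the GATA motif AGATAA in 1 (2.33%) against 10.3% and TATAAA in 4 (9.30%) against 12.97%. The NRF1 motif of 10 letters was found in 1 (2.33%) against 0.781%, and the YY1 motif of 11 letters in 0 against 0.218%. No matches of different motifs overlapped in the windows printed here. The windows of all genes were not matched to the Eif windows for CpG or for G and C. CCGGAAG and CACGTG each hold a CG, and AGATAA and TATAAA hold none. Whether the shares differ beyond base content was not tested. A match is a description of the letters and not a binding site.

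Upstream windows are shown for 2 genes that fell steeply and hold the ETS motif, in capitals, Eif3d (chr15:77970825-77971074, minus strand) and Eif4ebp2 (chr10:61452670-61452919, minus strand). Both are written 5′ to 3′ on the strand of the gene, and the capitals read CTTCCGG because the motif lies on the other strand. Of the 10 genes with the motif, Eif1b and Eif5a2 were not called and the others were lower, where 37 of all 52 Eif genes tested were lower. The windows of Eif4b, Eif3b and Eif4enif1, which fell more than the 2 genes shown, lack it. Whether the motif goes with the fall was not tested.
Eif3d: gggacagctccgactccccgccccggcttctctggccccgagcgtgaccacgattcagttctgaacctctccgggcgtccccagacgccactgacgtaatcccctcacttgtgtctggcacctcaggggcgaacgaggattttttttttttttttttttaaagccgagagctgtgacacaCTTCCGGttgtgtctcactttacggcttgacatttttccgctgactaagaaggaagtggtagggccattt
Eif4ebp2: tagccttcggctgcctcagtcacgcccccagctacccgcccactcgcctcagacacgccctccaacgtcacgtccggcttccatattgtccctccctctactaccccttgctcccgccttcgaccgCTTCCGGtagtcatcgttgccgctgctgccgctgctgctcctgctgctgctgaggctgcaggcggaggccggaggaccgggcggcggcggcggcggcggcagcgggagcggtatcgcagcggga

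The helicase paralogs Eif4a1 and Eif4a2, whose ratio did not overlap between the groups, are shown because their upstream windows share none of the motifs. That of Eif4a1 (chr11:69672424-69672673, minus strand) holds CACGTG once and CCAAT at 2 places, in capitals, and that of Eif4a2 (chr16:23107218-23107467, plus strand) holds none of the 7 motifs searched.
Eif4a1: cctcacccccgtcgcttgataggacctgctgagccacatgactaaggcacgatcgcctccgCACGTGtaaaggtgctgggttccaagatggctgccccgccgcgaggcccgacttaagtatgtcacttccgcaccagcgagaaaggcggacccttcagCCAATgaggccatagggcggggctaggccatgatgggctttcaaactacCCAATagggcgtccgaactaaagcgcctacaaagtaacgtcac
Eif4a2: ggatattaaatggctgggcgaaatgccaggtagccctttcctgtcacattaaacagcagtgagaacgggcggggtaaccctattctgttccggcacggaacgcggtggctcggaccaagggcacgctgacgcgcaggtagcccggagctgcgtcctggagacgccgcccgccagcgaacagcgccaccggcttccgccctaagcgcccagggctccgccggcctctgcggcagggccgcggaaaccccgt

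The windows of the kinases that were not called differ in their number of CCAAT boxes, a motif that the factor NF-Y can bind. Binding was not tested. The window of Eif2ak1 (chr5:143817542-143817791, plus strand) holds CCAAT once and that of Eif2ak3 (chr6:70844265-70844514, plus strand) holds it at 6 places, in capitals as CCAAT or, for the other strand, ATTGG. Of the 27025 windows of all genes 17 (0.0629%) hold as many or more, that of Eif2ak3 itself included.
Eif2ak1: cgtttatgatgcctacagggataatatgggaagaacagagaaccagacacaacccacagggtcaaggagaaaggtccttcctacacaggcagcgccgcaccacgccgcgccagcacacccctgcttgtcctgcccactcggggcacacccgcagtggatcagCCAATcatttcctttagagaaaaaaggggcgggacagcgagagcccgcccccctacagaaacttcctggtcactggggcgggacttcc
Eif2ak3: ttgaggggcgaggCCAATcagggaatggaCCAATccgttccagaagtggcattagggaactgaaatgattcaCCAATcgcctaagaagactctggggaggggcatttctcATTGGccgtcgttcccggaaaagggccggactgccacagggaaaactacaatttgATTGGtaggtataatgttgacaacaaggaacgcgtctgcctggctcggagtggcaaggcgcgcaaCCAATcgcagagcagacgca

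Genes linked to these factors were counted from chosen lists. Over all genes tested, as given above, 29.7% were lower and 24.1% higher, and at a mean of at least 10 RPKM 40.4% and 17.0%. Of 13 genes tested from the elongation and termination list, 11 were lower in CD51+ and 0 higher, with a median log2 change of -0.93. The list was wider than the factors of these steps and also held Eef1e1, Dhps and Dohh. Gspt2, a termination factor gene too low to be tested, was higher in every CD51+ library, with 0.194, 0.362 and 0.342 against 1.28, 1.77 and 0.959 RPKM. It counted as higher without the filter on low values (adjusted p = 0.00834) and after rescaling to 1000000 (0.00552). After rescaling it passed the filter through its CD51+ values alone, so there its difference was a condition of its being tested. Abce1, which recycles ribosomes, fell from 154, 145 and 145 to 58.1, 70.02 and 73.1 RPKM (-1.14 ± 0.15, adjusted p = 0.000898). Eef1e1 (133, 157 and 156 against 46.6, 79.1 and 92.7 RPKM) and Eefsec, the elongation factor for selenocysteine (70.9, 35.3 and 31.5 against 26.99, 17.2 and 18.4 RPKM), followed with log2 changes of -1.07 and -1.03. Dhps and Dohh, the enzymes that make the hypusine of eIF5A, fell with log2 changes of -0.69 and -0.93. Without CD51+ library 2 the adjusted p was 0.114 for Eefsec and 0.0960 for Dhps, and without CD51+ library 3 it was 0.104 and 0.0812. The Dhps call was also lost without CD44+CD51- library 1 (0.0599), that of Eefsec without the filter on low values (0.0593), and both with TMM scaling (0.0624 and 0.0605).

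Of 20 other initiation proteins tested, 8 were lower and 2 higher, and with the block 14 were lower, where 41.3% of all genes were. The share lower without the block was close to that of well expressed genes in general. Those higher were Mcts2 (2.09 ± 0.20, adjusted p = 0.000259), an intronless copy of Mcts1 whose reads could be shared with it, and Dap, with 43.6, 47.7 and 41.2 against 98.1, 97.8 and 83.2 RPKM (1.06 ± 0.14, adjusted p = 0.00102). Dap is a different gene from Eif4g2 (DAP5) and is not an established initiation factor, so its rise is no result on initiation. Mcts2 entered the test through its CD51+ values alone, with 0.0533, 0.554 and 0 against 3.49, 4.56 and 4.04 RPKM, so its difference was a condition of its being tested. Pabpc4, a poly(A)-binding protein, was the steepest called fall, from 18.8, 21.3 and 19.8 to 6.66, 9.88 and 12.5 RPKM (-1.01 ± 0.22, adjusted p = 0.00762). Without CD51+ library 1, 2 or 3, or without both libraries numbered 1, 1 was higher, and Mcts2 was then not tested. Without CD51+ library 2 the number lower was 5, and without both libraries numbered 1 it was 13.

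Of 20 genes of TORC1 and cap control, 9 were lower and 4 higher, against 29.7% and 24.1% of all genes. Ddit4, an inhibitor of TORC1 signalling, rose from 1.02, 5.40 and 4.57 to 8.22, 29.5 and 27.4 RPKM (2.26 ± 0.59, adjusted p = 0.0163), with library 1 the lowest in both groups. Without CD51+ library 2 its adjusted p was 0.0667, and without CD51+ library 3 it was 0.0655. Gatsl3, the arginine sensor also known as Castor1, rose from 1.27, 1.61 and 0.591 to 5.47, 6.19 and 4.06 RPKM (1.55 ± 0.23, adjusted p = 0.00177). Mknk2, a kinase that phosphorylates eIF4E, fell from 126, 118 and 102 to 49.4, 51.4 and 51.7 RPKM (-1.16 ± 0.14, adjusted p = 0.000675). Mtor itself had 3.89, 4.76 and 5.56 against 3.18, 3.68 and 2.72 RPKM and was not called (adjusted p = 0.0636, or 0.0403 with the block, lower).

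The integrated stress response lies downstream of eIF2 phosphorylation. The list used for it also held genes that act on the kinases, such as Gcn1l1 and Impact, so its counts are not of downstream genes alone. Of the 25 listed genes 19 were tested. Of these, 8 were higher in CD51+ and 5 lower, against 24.1% and 29.7% of all genes. Of the 8, Nupr1, Vldlr, Chac1 and Gpt2 passed the filter on low values through CD51+ alone, so that being higher was a condition of their being tested, and the count of 8 supports no statement on the list. Nupr1, a stress-induced chromatin protein, had 0.156, 0.513 and 0.144 RPKM in CD44+CD51- and 59.1, 112 and 92.3 in CD51+ (6.09 ± 0.26, adjusted p = 7.36e-06). Cebpb, a transcription factor also of myeloid cells, had 48.03, 26.3 and 15.6 against 395, 107 and 109.7 RPKM (2.58 ± 0.59, adjusted p = 0.00971). Vldlr, a lipoprotein receptor gene, had 0.0146, 0.0272 and 0 against 3.18, 3.88 and 3.90 RPKM (2.20 ± 0.13, adjusted p = 2.25e-05). Atf4, the transcription factor whose translation the response raises, had 40.6, 72.3 and 66.8 against 51.3, 78.5 and 77.2 RPKM and overlapped (adjusted p = 0.519). So did Ddit3 (CHOP), with 4.74, 7.64 and 7.79 against 4.50, 7.45 and 7.65 RPKM (adjusted p = 0.905). Asns, the asparagine synthetase gene and a classical Atf4 target, fell from 206, 219.6 and 215 to 99.5, 85.4 and 99.8 RPKM (-1.17 ± 0.14, adjusted p = 0.000726). Gcn1l1, the partner that Eif2ak4 needs on the ribosome, fell as well (-0.97 ± 0.15, adjusted p = 0.00199). Impact, which competes for that partner, rose from 3.02, 3.48 and 3.84 to 6.04, 9.51 and 7.40 RPKM (0.94 ± 0.19, adjusted p = 0.00551). Without CD51+ library 1, 2 or 3 the number higher was 4, 3 and 4, and without both libraries numbered 1 it was 4. The 4 genes that passed through CD51+ alone were not tested in any of these, and without CD51+ library 2 the call of Nck1 was lost as well (adjusted p = 0.0567). After rescaling to 1000000 the number lower was 8.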

How the data were processed

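Total RNA was purified with a micro-scale column kit and made into libraries with Nextera XT, per the labels, and sequenced on a HiSeq2500. The authors deposited RPKM per gene. The submitters' processing notes name GRCm38 and edgeR 3.16.5, while aligner, counter and annotation are not given in the sources used here. Of 25955 entries, 4303 stood at 0 in every library, 34 shared a symbol and 26 had date-like symbols. Depth was recovered with GENCODE M21 exon lengths, by which 89.7% of 32352 values of up to 20 reads were whole within 0.05 reads, where 10% would be by chance.

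Log2(RPKM + 1) was tested with limma 3.58.1 (R 4.3.3) with an intensity trend, on genes of at least 1 RPKM in at least 3 samples. Ratios used a pseudocount of 0.1 and exact permutation tests. The pseudocount of 1 makes changes of low genes smaller. The same fit was also run on simulated data, drawn after the main fit from the means and spreads of these libraries. Its outcome is not given here and no result rests on it. Alternatives were pseudocounts of 0.1 and 0.5, no filter, a filter on the mean, rescaling to a sum of 1000000, TMM, quantile normalization, no intensity trend, the library number as a block, and leaving out libraries, including both numbered 1, a choice made after seeing the data. Deviations of same-numbered libraries from their group means correlated at 0.62, 0.29 and 0.52 across genes for numbers 1, 2 and 3, all above 0.1, so a fit with the number as a block was used beside the main one. Different numbers correlated at 0.32 (CD44+CD51- 3 with CD51+ 2), 0.20 (2 with 3) and below 0 otherwise, so number 1 alone stood apart, and the labels do not say what a number marks. The genes and lists were chosen with earlier results of these data known. Values in all libraries were given for the kinases, the 4E-BP genes, up to 2 called genes per complex and direction, the 10 largest called changes, paired and sex-linked genes, and up to 3 called genes of each other list; further list genes were named for their role after their values were seen.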

Additional observations from a re-analysis of the deposited data

How the results depend on the processing

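Of the 38 called Eif genes 27 passed the threshold in each of 16 alternatives. Of the results of single Eif genes under alternatives, 776 kept their direction and side of the threshold, 32 fell below it, 18 came past it and 6 changed sign. The changes of sign were Eif2ak1 at 0.28 and Eif1b at 0.12 without CD44+CD51- replicate 1, Eif1b at 0.03 without both libraries numbered 1, Eif4g3 at -0.16 both on rescaling to a sum of 1000000 and on quantile normalization, and Eif5a2 at -0.44 on quantile normalization; none of these was called as deposited. Leaving out 1 library in turn gave log2 changes of -0.94 to 0.28 for Eif2ak1 and of -0.41 to 0.12 for Eif1b, and the cause was not tested. With the library number as a block, 2 Eif genes were higher (Eif4e3 and Eif2ak3) and 44 lower, against 27.8% higher and 41.3% lower of all genes; apart from the genes for which it is given above it changed no other call among them. Leaving out 1 library gave 27 to 37 lower Eif genes, the fewest without CD51+ replicate 2, and 1 higher each time. Over all genes it gave 1225 to 2739 higher and 2336 to 3081 lower; without a CD51+ library fewer genes passed the filter, for instance 10437 without replicate 2. Without both libraries numbered 1, 1707 genes were higher, and 39 Eif genes lower and 1 higher. Rescaling to a sum of 1000000 gave 5672 genes lower. Dropping the filter moved the median of all genes by 0.22 on the log2 scale. Depth limits the low genes most: Eif3j2 rested on about 5 reads in CD51+ replicate 1.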

Other observations

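In both groups library 1 was above both other libraries for 8 of the 53 Eif genes and below both for 26. Of the 52 Eif genes tested 8 were above and 25 below. Among all genes tested 19.4% were above in both groups and 34.8% below. The difference from the Eif genes was not tested. Eif2ak1 led the first set, at 4.12 times the mean of libraries 2 and 3 in CD44+CD51- and 3.21 times in CD51+. Eif1b followed at 2.04 and 1.21 times and Eif2b5 at 1.56 and 1.37 times, and the others were Eif2b4, Eif3b, Eif4a1, Eif4enif1 and Eif4h. In the second set Eif4g2 was at 0.539 and 0.355 of that mean, Eif5b at 0.732 and 0.463, and Eif2ak3 at 0.640 and 0.645.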
